A study of Homo sapiens with 4 samples.

Results

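10 genes that encode ID proteins or take part in the feedback of BMP and TGF-beta signalling were followed in SY5Y neuroblastoma (NB) cells treated with SGSS05-NS. They were taken by name and comprise the helix-loop-helix genes ID1, ID2, ID3 and ID4, the inhibitory SMAD genes SMAD6 and SMAD7, the pseudoreceptor gene BAMBI, the corepressor genes SKI and SKIL, and the ligand gene BMP7. They are 10 of the 57820 genes in the count files, and all 10 had enough fragments to be tested, ID4 only with SGSS05-NS. SY5Y is an established human NB cell line, labelled as MYCN wild type, and 2 libraries of cells given the solvent DMSO were compared with 2 libraries of cells given SGSS05-NS, all harvested at 12 h. The labels give 3 μM SGSS05-NS, a dose that the study's legends also give for SY5Y, whereas its methods state a lower dose for this cell line. The study describes SGSS05-NS3, an inhibitor of the methyltransferase SETD8, and lists SGSS05-NS among related compounds. Whether the SGSS05-NS of the labels is SGSS05-NS3 is not settled. By the study's measurements, SGSS05-NS3 also inhibited other methyltransferases, though SETD8 at the lowest concentration. The study described the replicates as independent, all come from this single line, and p-values measure the spread between these libraries.

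BMP and TGF-beta ligands bind pairs of type I and type II receptors, which phosphorylate receptor-activated SMAD proteins. These join SMAD4, enter the nucleus and switch on target genes, among which ID1, ID2 and ID3 are classical BMP targets. ID proteins carry a helix-loop-helix but no basic region, so they pair with E proteins such as TCF3, TCF4 and TCF12 and keep them, and their tissue-specific partners, off DNA. SMAD6, SMAD7, BAMBI, SKIL and SKI dampen the same signal at the receptor or on chromatin, and several of them are themselves induced by it, which closes a feedback loop. In sympathetic neuroblasts, the cells from which NB arises, BMP signals help to switch on HAND2 and other regulators of sympathetic identity.

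Fragments on genes ranged from 21463105 to 25350204 per library. Of 16468 genes tested with edgeR's quasi-likelihood test, 1049 were higher and 1341 lower with SGSS05-NS at an adjusted p-value (Benjamini-Hochberg over all genes tested) under 0.001, the study's threshold, and the median log2 fold change was 0.01. Of 10 sympathetic markers 9 had enough fragments to be tested, while TH was too rare. Of 14 markers of mesenchymal or Schwann-like cells 9 were tested as well, among them TWIST1 (151.6 and 168 CPM with DMSO), FN1 (58.5 and 70.9) and SNAI2 (10.3 and 10.4), while PRRX1, DCN and SOX10 had no fragment. KMT5A, the gene of SETD8, had 54.6 and 56.8 CPM with DMSO and 82.8 and 82.9 CPM with SGSS05-NS (log2 fold change 0.57, standard error (SE) 0.09, edgeR's adjusted p = 0.00037). The call was lost without DMSO replicate 1 (adjusted p = 0.0017). CPM are counts per 1000000, here of fragments on genes after scaling of the libraries by edgeR's TMM method. In bulk RNA, fewer cells of a type and less RNA per cell cannot be told apart.

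Of the 10 genes, 3 rose with SGSS05-NS at an adjusted p-value under 0.001, ID4, SKIL and ID1. Of all genes tested, 6.37% were higher and 14.5% were called in either direction. ID4 passed the filter on low counts only through its SGSS05-NS libraries, so its place in this count depends on that filter. None passed as lower, against 8.14% of all genes, and DESeq2 and limma voom also called 0. At an adjusted p-value under 0.05, 1 was lower, BMP7, against 23.7% of all genes. The median log2 fold change of the 10 was 0.23. Both SGSS05-NS libraries lay above both DMSO libraries in 6 genes, against 37.8% of all genes, and below them in 2, against 36.9%, so that the groups did not overlap in 8 genes, against 74.7%. The groups overlapped in the remaining 2, SMAD7 and BAMBI. The group thus ranged from a gene near 0 that became detectable, ID4, to genes whose conditions overlapped.

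**Figure D1:**
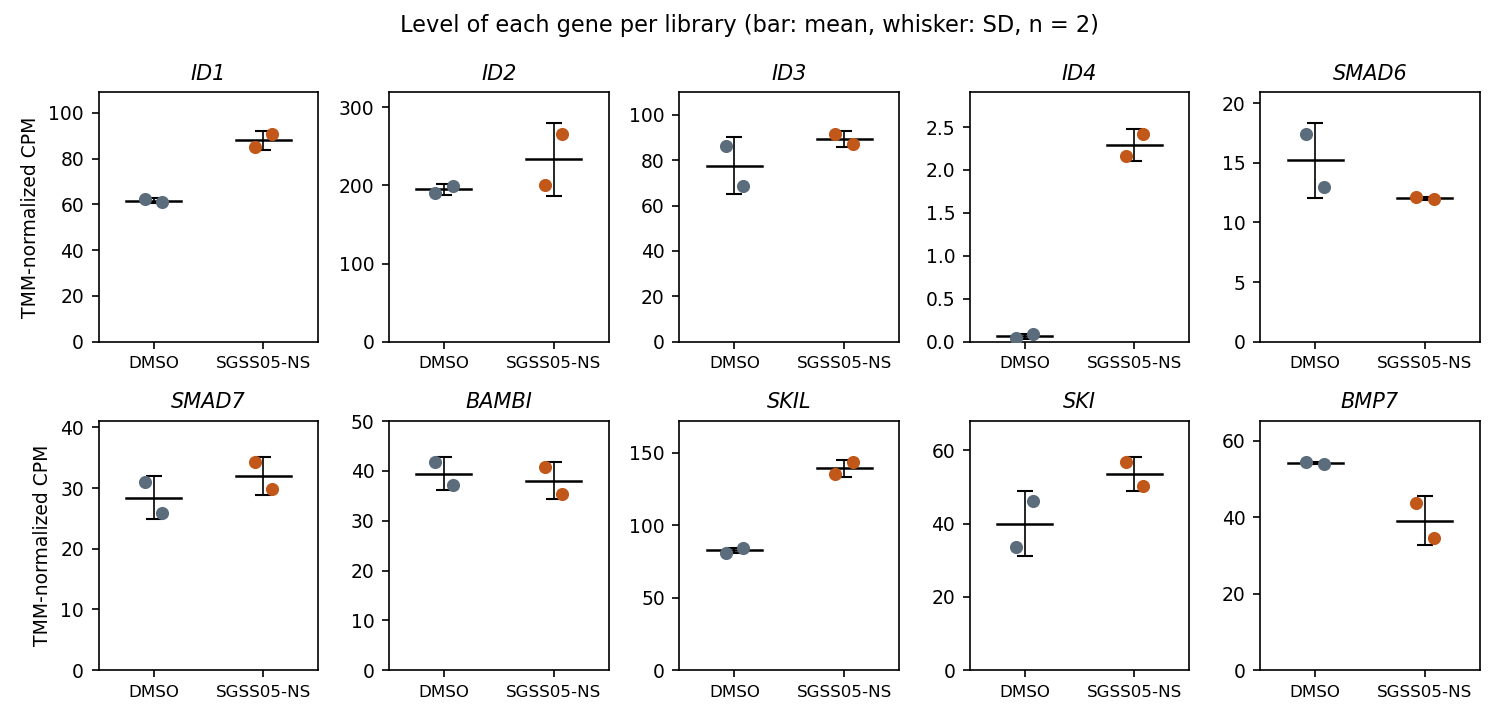
Level of each of the 10 genes in each library, in TMM-normalized CPM on a linear axis from 0, for DMSO (grey) and SGSS05-NS (orange). Points are libraries, bars the mean and whiskers the SD (n = 2). ID4 went from 0.0399 and 0.0856 CPM to 2.16 and 2.42 CPM, SKIL and ID1 rose with little spread, and the SMAD7 and BAMBI points overlap.

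To show the regulatory sequence of the genes that rose, the RefSeq promoter windows of GRCh38.p14, which run from 250 bases before to 50 bases after the start of transcription, are printed for ID4, SKIL and ID1, with that of SMAD6, a gene that did not pass, for contrast. Windows matched 8 of the 10 genes, with 3 windows for SMAD7. SKI and BMP7 had no entry. Each is written 5′ to 3′ on the strand of the gene, and capitals mark matches on either strand to GGCGCC (a GC-rich SMAD element), CAGAC (the SMAD box), GTCTAGAC (its palindromic form), TGACGTCA (the CRE bound by CREB and ATF factors), TGANTCA (the AP-1 site) and GAANNTTC (the core of heat shock elements). Matches to different motifs do not overlap in these 4 windows.
ID4, chr6:19837120-19837419, plus strand: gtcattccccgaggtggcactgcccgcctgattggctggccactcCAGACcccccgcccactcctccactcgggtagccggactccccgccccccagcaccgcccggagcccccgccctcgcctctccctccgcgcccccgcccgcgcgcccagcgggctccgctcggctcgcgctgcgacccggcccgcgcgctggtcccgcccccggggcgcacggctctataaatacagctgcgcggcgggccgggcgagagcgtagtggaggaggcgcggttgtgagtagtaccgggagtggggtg
SKIL, chr3:170357465-170357764, plus strand: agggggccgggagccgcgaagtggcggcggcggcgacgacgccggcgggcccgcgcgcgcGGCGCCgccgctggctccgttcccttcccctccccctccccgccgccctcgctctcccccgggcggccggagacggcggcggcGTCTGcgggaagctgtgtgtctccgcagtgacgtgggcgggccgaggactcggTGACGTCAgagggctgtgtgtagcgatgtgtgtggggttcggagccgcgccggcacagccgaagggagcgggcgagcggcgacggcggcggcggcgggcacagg
ID1, chr20:31605039-31605338, plus strand: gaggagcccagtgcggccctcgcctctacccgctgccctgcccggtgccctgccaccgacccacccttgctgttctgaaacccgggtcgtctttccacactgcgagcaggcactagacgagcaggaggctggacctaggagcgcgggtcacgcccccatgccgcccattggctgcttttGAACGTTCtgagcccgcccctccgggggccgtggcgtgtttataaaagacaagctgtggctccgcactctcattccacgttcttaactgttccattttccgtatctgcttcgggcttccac
SMAD6, chr15:66701986-66702285, plus strand: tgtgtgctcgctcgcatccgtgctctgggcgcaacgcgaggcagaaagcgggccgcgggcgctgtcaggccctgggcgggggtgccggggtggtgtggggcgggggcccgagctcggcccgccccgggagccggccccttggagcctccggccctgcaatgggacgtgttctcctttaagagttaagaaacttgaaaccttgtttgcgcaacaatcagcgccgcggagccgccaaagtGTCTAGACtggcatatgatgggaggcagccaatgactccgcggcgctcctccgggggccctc
The SKIL window held 1 match to GGCGCC, 1 to CAGAC and 1 to TGACGTCA, the last starting 54 bases before the start of transcription. Of all 35116 promoter windows, 19.2% held GGCGCC, 45.3% CAGAC and 1.85% TGACGTCA. ID4 held 1 match to CAGAC. ID1 held none to a SMAD element and 1 to GAANNTTC, which 6.77% of all windows held. The SMAD6 window held GTCTAGAC, found in 0.202% of windows, 12 bases before the start. Among the windows not printed, that of BAMBI held 3 matches to GGCGCC and 2 to CAGAC, that of ID3 held 1 to CAGAC, and that of ID2 held none to any of these motifs. No window of the 8 genes matched TGANTCA or the p53 half-site consensus, present in 7.71% and 6.63% of all windows. SMAD7 held 2, 1 and 0 matches to CAGAC in its 3 windows. The GC content was 76.3% for ID4, 79.0% for SKIL, 62.7% for ID1 and 68.0% for SMAD6, against a median of 58.7% over all windows. A match is a run of letters in this window and not a measured binding site. Sequence outside the windows was not searched, so a gene without a match here may have one elsewhere.

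ID4 was the ID gene that moved most. It lies on chromosome 6 of GRCh37 (the build of the counts, used for all positions that follow) from 19837601 to 19842428 on the plus strand and is often silent in cells that express the other ID genes. With DMSO it had 1 fragment in replicate 1 and 2 in replicate 2, and with SGSS05-NS 48 and 57. Both DMSO libraries were thus near 0 and both SGSS05-NS libraries stood clearly apart. Scaled for depth, the counts stood in a ratio of 37.1, for which counting error alone gives an exact binomial 95% interval from 12.4 to 183. The fitted log2 fold change was 5.10 (SE 0.47, edgeR's adjusted p = 7.1e-06). It depends on how so few control fragments are treated and ranged from 4.65 to 5.65 with each library left out in turn. Where at least 10 counts were required in every library, ID4 was not tested. Fragments on the opposite strand of ID4 numbered 0 in every library, and the long non-coding RNA LNC-LBCS, annotated there, had 13 and 10 fragments with DMSO and 16 and 25 with SGSS05-NS.

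ID1 (chromosome 20 from 30193086 to 30194318, plus strand) had 62.5 and 60.9 CPM with DMSO and 85.1 and 90.9 CPM with SGSS05-NS. The groups did not overlap and the libraries within each were close. This is a log2 fold change of 0.51, a 1.43-fold rise (SE 0.09, edgeR's adjusted p = 0.00087), just inside the threshold. The call was lost with an adjusted p of 0.0016 when fragments were counted without regard to strand. It was also lost without DMSO replicate 1 (adjusted p = 0.0021), without DMSO replicate 2 (0.0055) and without SGSS05-NS replicate 2 (0.0018), while the log2 fold change stayed between 0.47 and 0.55.

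ID2 (chromosome 2 from 8818975 to 8824591, plus strand), whose protein is also known to bind the retinoblastoma protein, had 189.6 and 199.8 CPM with DMSO and 200.1 and 266 CPM with SGSS05-NS. One SGSS05-NS library was level with the controls and the other was higher. The log2 fold change was 0.26 with a 95% interval from -0.01 to 0.53 (edgeR's adjusted p = 0.10). It ranged from 0.04 without SGSS05-NS replicate 2 to 0.44 without SGSS05-NS replicate 1. ID3 (chromosome 1 from 23884417 to 23885992, minus strand) had 86.4 and 68.7 CPM with DMSO and 91.7 and 86.9 CPM with SGSS05-NS, and here the DMSO libraries differed more. Its log2 fold change was 0.20, with an interval from -0.04 to 0.45 (edgeR's adjusted p = 0.16). It was 0.37 without DMSO replicate 1 (adjusted p = 0.035) and 0.03 without DMSO replicate 2 (0.90). Neither gene passed the test, and the intervals leave room for rises of the size seen in ID1 for ID2 but not for ID3.

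Per kilobase of the canonical transcript, a scale on which genes can be compared, ID2 was the highest of the 10 genes with DMSO (149.9 ± 5.54 CPM per kb, SD, n = 2), followed by ID3 (81.7 ± 13.2), ID1 (62.7 ± 1.14), BAMBI (23.3 ± 1.93), BMP7 (13.5 ± 0.0834), SKIL (11.5 ± 0.284), SMAD7 (8.52 ± 1.06), SKI (6.57 ± 1.45), SMAD6 (3.98 ± 0.821) and ID4 (0.0162 ± 0.00835). No neighbours in this order overlapped in their 2 libraries. With SGSS05-NS, SKIL (19.5 ± 0.831) stood above BMP7 (9.72 ± 1.60), ID3 (94.0 ± 3.57) and ID1 (89.5 ± 4.16) overlapped, and so did BMP7 with SMAD7 (9.60 ± 0.940) and SMAD7 with SKI (8.79 ± 0.767). ID4 was the lowest also after its rise, at 0.592 ± 0.0476 CPM per kb, against 179.5 ± 36.0 CPM per kb for ID2.

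SKIL (chromosome 3 from 170075130 to 170114623, plus strand) encodes SnoN, a corepressor that binds SMAD complexes and is degraded early in TGF-beta signalling, then made again as a target. It had 81.1 and 84.0 CPM with DMSO and 135 and 144 CPM with SGSS05-NS. The libraries of each condition were close and the conditions did not overlap. SKIL thus had a log2 fold change of 0.75, a 1.69-fold rise (SE 0.09, edgeR's adjusted p = 5.5e-05). SKIL was called under every alternative test, scaling, filter, strand setting and left-out library tried, with log2 fold changes from 0.71 to 0.79. SKI (chromosome 1 from 2158827 to 2241652, plus strand), its paralog, had 33.7 and 46.2 CPM with DMSO and 56.8 and 50.2 CPM with SGSS05-NS. The SGSS05-NS libraries were above both controls, but the controls differed from each other. Its log2 fold change of 0.42 (interval from 0.12 to 0.72, edgeR's adjusted p = 0.024) did not pass the threshold of 0.001. It was 0.65 without DMSO replicate 2, where it passed (adjusted p = 0.0002), and 0.20 without DMSO replicate 1 (adjusted p = 0.30).

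**Figure D2:**
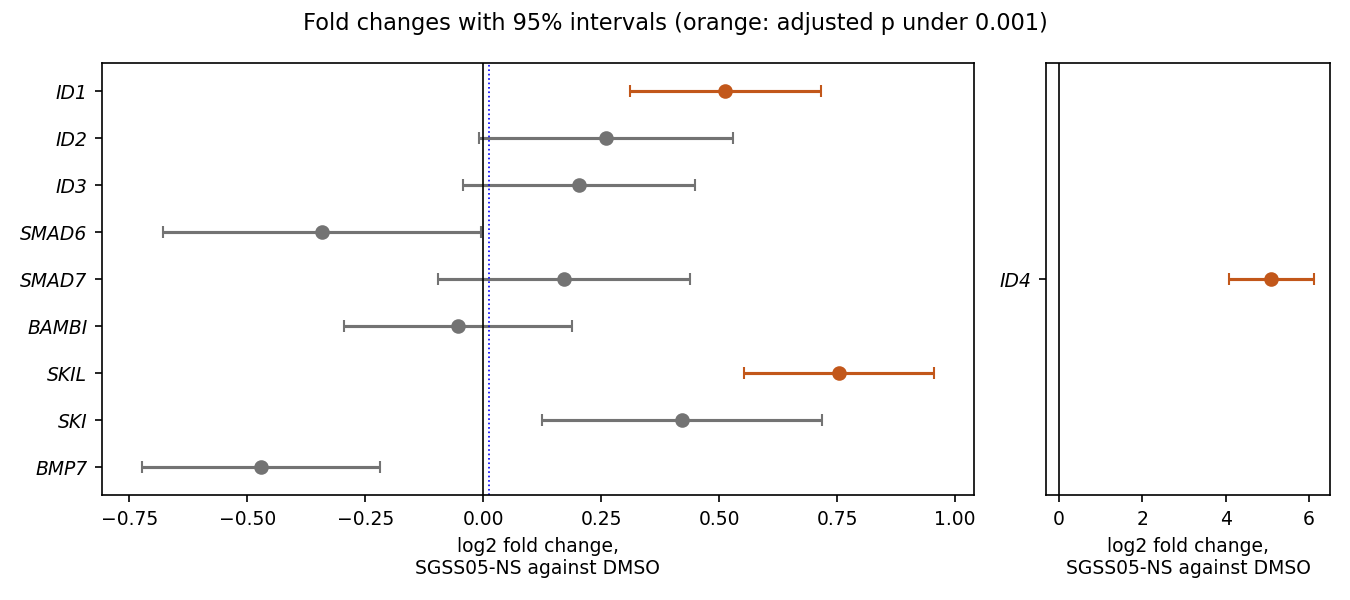
Log2 fold change of SGSS05-NS against DMSO for each gene with its 95% interval from edgeR's quasi-likelihood fit. ID4 has its own panel with a wider axis. Orange marks genes at an adjusted p-value under 0.001, and the dotted line is the median of all genes tested (0.01). ID1, SKIL and ID4 lie to the right of 0, and BMP7, at -0.47, lies furthest to the left.

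The inhibitory SMAD genes did not pass in either direction. SMAD6 (chromosome 15 from 66994574 to 67075187, plus strand), which mainly restrains BMP signals, had 17.5 and 13.0 CPM with DMSO and 12.1 and 11.9 CPM with SGSS05-NS. DMSO replicate 1 was the highest and the other 3 libraries were close together. The log2 fold change was -0.34 (interval from -0.68 to -0.01, edgeR's adjusted p = 0.089). It was -0.12 without DMSO replicate 1 (adjusted p = 0.65) and -0.56 without DMSO replicate 2 (adjusted p = 0.0092). SMAD7 (chromosome 18 from 46446223 to 46477335, minus strand), which blocks TGF-beta and BMP receptors, had 31.0 and 25.9 CPM with DMSO and 34.3 and 29.8 CPM with SGSS05-NS, and the groups overlapped. Its log2 fold change was 0.17 (interval from -0.10 to 0.44, edgeR's adjusted p = 0.27). It was 0.30 without DMSO replicate 1, 0.03 without DMSO replicate 2 and 0.06 without SGSS05-NS replicate 1, and passed in none of these.

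BAMBI (chromosome 10 from 28966439 to 28971861, plus strand) encodes a transmembrane protein that resembles a type I receptor without a kinase domain. It had 41.8 and 37.2 CPM with DMSO and 40.7 and 35.4 CPM with SGSS05-NS, and the libraries of both conditions were interleaved. Its log2 fold change was -0.05, with an interval from -0.30 to 0.19 (edgeR's adjusted p = 0.72), so that a rise of the size of that in ID1 lay outside the interval.

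BMP7 (chromosome 20 from 55743809 to 55841697, minus strand), the ligand of the group, had 54.4 and 53.9 CPM with DMSO and 43.6 and 34.5 CPM with SGSS05-NS. Both SGSS05-NS libraries were below the controls and differed from each other. Its log2 fold change of -0.47 (interval from -0.72 to -0.22, edgeR's adjusted p = 0.0060) did not pass the threshold of 0.001. With no filter on low counts the gene passed (-0.50, edgeR's adjusted p = 0.00013). It passed without SGSS05-NS replicate 1 (log2 fold change -0.66, adjusted p = 0.00011) and with the replicate number as a block (-0.48, adjusted p = 0.00081), but not without SGSS05-NS replicate 2 (-0.31, adjusted p = 0.035). At a threshold of 0.05, SKI joined the higher genes and BMP7 was the single lower gene, where 22.6% of all genes were higher, 23.7% lower and 46.3% one or the other.

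**Figure D3:**
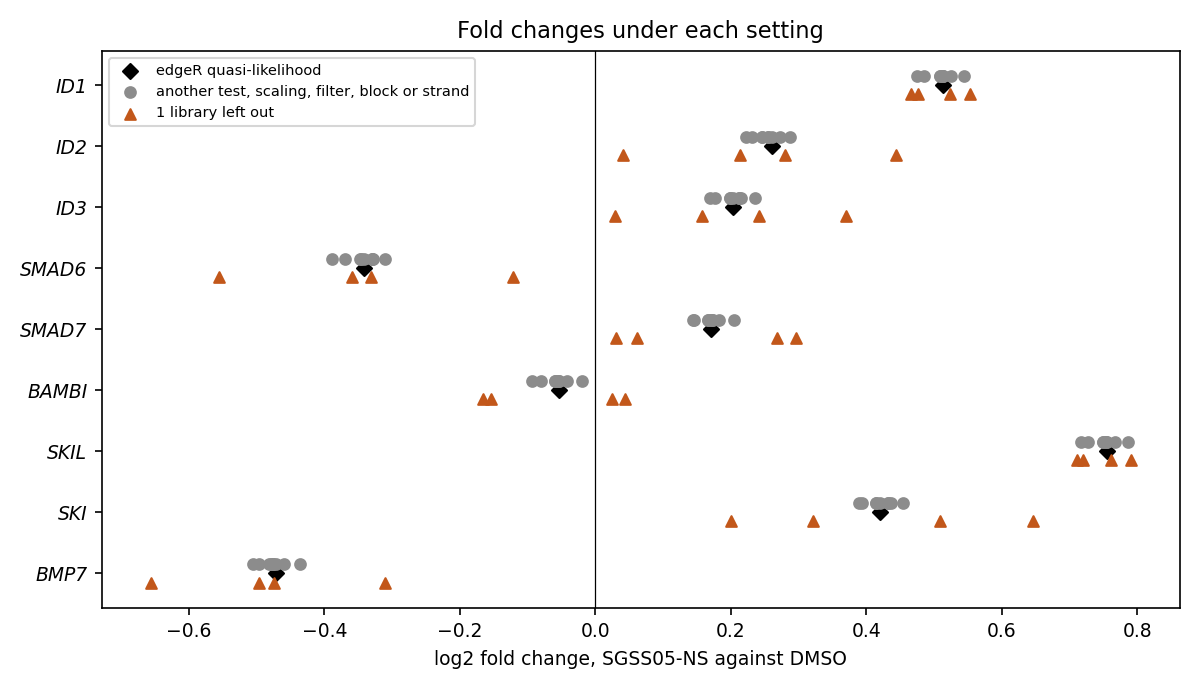
Log2 fold changes of 9 genes (ID4 is off this scale) with edgeR's quasi-likelihood test (diamonds), under another test, scaling, filter, block or strand setting (circles) and with 1 library left out (triangles). SKIL and ID1 stay within narrow ranges, from 0.71 to 0.79 and from 0.47 to 0.55, while BAMBI falls on both sides of 0 when libraries are left out.

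The other genes of the pathway were read from lists by role, which hold 128 genes, of which 90 were tested. Among them, 8 were higher and 16 lower, against 6.37% and 8.14% of all genes tested, and their median log2 fold change was -0.10, beside 0.01 over all genes tested. Fold changes of all genes moved with genomic span. Of 24 pathway genes over 100 kb long, 7 were lower, among them BMPR1B, BMPR1A, LDLRAD4, NEDD4L, WWP2 and TCF4, where 27.8% of all genes of that span were lower. Of the 66 shorter ones, 9 were lower and 8 higher. Among all genes tested, 12.0% were lower and 2.66% higher up to 2 kb. These shares were 1.78% and 9.23% over 2 to 10 kb, and 1.91% and 9.47% over 10 to 50 kb. Over 50 to 100 kb they were 5.06% and 4.35%. The part of gene span in these values was not tested. Of 10 ligand genes tested, 1 was higher, GDF5, a BMP-type ligand (log2 fold change 2.16, edgeR's adjusted p = 0.00069). GDF5 had 0.359 and 0.257 CPM with DMSO and 1.58 and 1.23 CPM with SGSS05-NS, and its call was lost with DESeq2 (adjusted p = 0.0055), limma voom (0.0011), scaling by library size only (0.0011) and unstranded counts (0.0073), and also without DMSO replicate 2 (0.0027) and without SGSS05-NS replicate 1 (0.0034). GDF11 and INHBA, which encodes the subunit of activin A, had log2 fold changes of -0.58 and -0.69 and did not pass (edgeR's adjusted p = 0.0081 and 0.022). Without SGSS05-NS replicate 1 both passed, GDF11 at -0.88 (adjusted p = 2.5e-05) and INHBA at -1.16 (3.8e-05), and so did GDF11 without DMSO replicate 2 (0.00046) and INHBA without DMSO replicate 1 (2.8e-05). With no filter on low counts both passed (1.9e-05 and 2e-05), and GDF11 also with the block (0.00033).

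Of 13 receptor and coreceptor genes tested, 2 were lower and 1 was higher, where 14.5% of all genes were called. BMPR1B, a type I BMP receptor, had 56.5 and 73.8 CPM with DMSO and 14.4 and 13.8 CPM with SGSS05-NS, so that the groups stood far apart. The log2 fold change was -2.21 (SE 0.14, edgeR's adjusted p = 3.2e-07), and it ranged from -2.40 to -2.02 with each library left out. The second type I receptor gene, BMPR1A, fell from 99.96 and 99.6 CPM to 68.8 and 60.8 CPM (log2 fold change -0.62, edgeR's adjusted p = 0.00032). The call for BMPR1A was lost with scaling by library size only (adjusted p = 0.0014). BMPR1B and BMPR1A span over 100 kb, where 27.8% of all genes tested were lower. BMPR2, their type II partner, had a log2 fold change of -0.49 (edgeR's adjusted p = 0.0068) and passed without DMSO replicate 1 (log2 fold change -0.69, adjusted p = 1.1e-05) and with no filter (1.3e-05). RGMA, a BMP coreceptor also known from axon guidance, rose from 1.39 and 1.33 CPM to 5.41 and 4.21 CPM (log2 fold change 1.81, edgeR's adjusted p = 0.0001). TGFBR1, the type I receptor of TGF-beta, had a log2 fold change of -0.18 (edgeR's adjusted p = 0.16).

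None of the 6 receptor-activated or common SMAD genes passed with edgeR's quasi-likelihood test. At an adjusted p-value under 0.05, 1 was higher and 2 were lower, against 22.6% and 23.7% of all genes. SMAD1, a transducer of BMP signals, came closest, with 12.3 and 12.5 CPM with DMSO and 18.8 and 20.5 CPM with SGSS05-NS (log2 fold change 0.67, adjusted p = 0.0011). It passed with the likelihood ratio test (adjusted p = 9e-06), DESeq2 (0.0008) and the replicate number as a block (0.00014), and without SGSS05-NS replicate 1 (0.00051). SMAD4 and SMAD5 had log2 fold changes of 0.07 and 0.11, and SMAD3 and SMAD9 of -0.38 and -0.26.

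Of 9 extracellular antagonist genes tested, 1 was lower, against 8.14% of all genes, and the median log2 fold change was 0.20. CHRD, which encodes chordin, had 2 fragments with DMSO and 22 with SGSS05-NS in all, a ratio of 11.7 (counting interval 2.87 to 102), and did not pass (edgeR's adjusted p = 0.0029, but 6e-05 with the likelihood ratio test and 0.00062 with the replicate number as a block). DAND5, another antagonist gene, had a log2 fold change of -1.49 and did not pass (edgeR's adjusted p = 0.0059), but it did without DMSO replicate 1 (-1.93, adjusted p = 3.2e-07), with the likelihood ratio test (0.00031), with no filter (2.6e-07) and with the block (0.00012). NOG, which encodes noggin, had 3 and 8 fragments in all and was not tested.

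Of 21 intracellular regulators tested, 4 were lower, against 8.14% of all genes. They were LDLRAD4, which restrains SMAD activation by TGF-beta receptors (log2 fold change -2.24, edgeR's adjusted p = 4.9e-06), the ubiquitin ligase gene NEDD4L (-1.17, adjusted p = 6.7e-05), FKBP1A, whose product binds type I receptors (-0.62, adjusted p = 0.0003), and the ubiquitin ligase gene WWP2 (-0.64). LDLRAD4 went from 15.8 and 11.7 CPM to 3.06 and 2.76 CPM. LDLRAD4, NEDD4L and WWP2 span over 100 kb, where 27.8% of all genes tested were lower. WWP2 was named after its value was seen, to complete the count, and its call was lost without SGSS05-NS replicate 1 (adjusted p = 0.0011) and with scaling by library size only (0.0012).

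Of 19 other target genes tested, 5 were higher and 4 lower, against 6.37% and 8.14% of all genes. JUNB, an AP-1 subunit that many stimuli induce, rose from 21.4 and 19.6 CPM to 67.4 and 69.4 CPM (log2 fold change 1.74, edgeR's adjusted p = 2.4e-07). VASN, which encodes a membrane protein known to bind TGF-beta, had a log2 fold change of 1.37 (edgeR's adjusted p = 7.4e-06). Among the higher genes were also CCN1 (2.90) and MSX2 (1.70), and the 4 lower were UNC5B (-0.94), GATA2 (-0.91), GATA3 (-0.84) and SOX4 (-0.79). These 6 were named after their values were seen. CCN1 was rare, with 8 fragments with DMSO and 58 with SGSS05-NS in all, a ratio of 7.68 (counting interval 3.65 to 18.6). GATA3 is also a sympathetic marker. Its call was lost with DESeq2 (adjusted p = 0.020), limma voom (0.0012), scaling by library size only (0.0032), at least 10 counts in every library (0.0012) and without SGSS05-NS replicate 2 (0.0016). The call for CCN1 was lost with DESeq2 (0.0013) and without SGSS05-NS replicate 2 (0.0013).

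**Figure D4:**
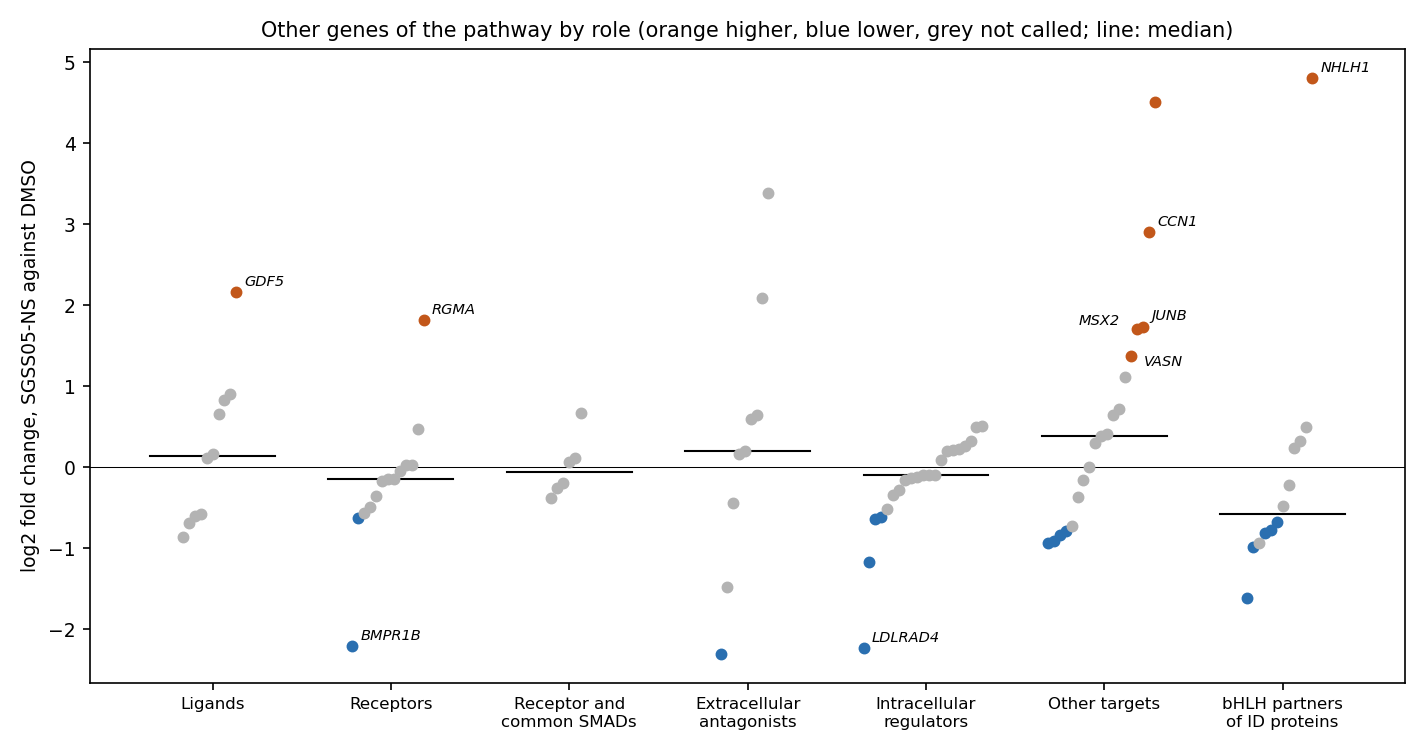
Log2 fold change of SGSS05-NS against DMSO for the 90 tested genes of the other lists, by role, each point a gene. Orange and blue mark genes higher and lower at an adjusted p-value under 0.001, grey those not called, and the line the median of the list. BMPR1B and LDLRAD4 lie among the lowest, at -2.21 and -2.24, and the list of bHLH partners has its median at -0.58.

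The basic helix-loop-helix (bHLH) genes, which encode E proteins and tissue-specific partners of E proteins, were read next. Of 12 tested, 5 were lower and 1 higher, against 8.14% and 6.37% of all genes, with a median log2 fold change of -0.58. TCF4, an E protein gene, had 835 and 875 CPM with DMSO and 486 and 379 CPM with SGSS05-NS, below the controls in both libraries. Its log2 fold change was -0.98 (SE 0.12, edgeR's adjusted p = 5e-05). The other E protein genes did not pass, with -0.48 for TCF12 (edgeR's adjusted p = 0.0021) and -0.22 for TCF3 (0.067). TCF12 passed with the likelihood ratio test (adjusted p = 0.00019), with DESeq2 (0.00016) and with no filter on low counts (2.9e-06), and also without DMSO replicate 2 (0.00052) and without SGSS05-NS replicate 1 (0.00024).

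Among the tissue-specific partners, HAND2, a regulator of sympathetic neurons, had a log2 fold change of -0.81 (edgeR's adjusted p = 0.00039, lost at 0.0016 with scaling by library size only), TWIST1 one of -0.77 and HAND1 one of -0.68. The single higher gene, NHLH1, had 4 fragments with DMSO and 113 with SGSS05-NS in all, a ratio of 29.9 (counting interval 11.4 to 112). HAND1 and NHLH1 were named after their values were seen. The summed level of the 10 sympathetic markers, which include HAND2, was 4168 and 4499 CPM with DMSO and 2618 and 2575 CPM with SGSS05-NS. The largest part was STMN2, with 1309 and 1431 CPM with DMSO and 765 and 939 CPM with SGSS05-NS. Of the 9 markers tested, 6 were lower, against 8.14% of all genes, among them CHGA (-1.37) and PHOX2A (-0.65). ISL1 (-0.61, edgeR's adjusted p = 0.0025), DBH (-0.26, 0.044) and CHGB (0.11, 0.36) did not pass. CHGB lay above the controls in both SGSS05-NS libraries. ISL1 passed with DESeq2 (adjusted p = 0.00017). STMN2, ISL1, DBH and CHGB were named after their values were seen. The summed level of the 14 mesenchymal or Schwann-like markers, most of it TWIST1, was 229.8 and 258 CPM with DMSO and 174 and 169 CPM with SGSS05-NS. Of its 9 tested members, 1 was lower, TWIST1, against 8.14% of all genes. COL1A2 and CD44, at -2.24 and 1.41, did not pass. COL1A2 did with the likelihood ratio test (adjusted p = 2.1e-05), with no filter (5e-06) and with the block (0.00022). Without DMSO replicate 1 its log2 fold change was -2.49. COL1A2 was rare, with 22 and 29 fragments with DMSO and 2 and 8 with SGSS05-NS. The part of these marker shifts in the bHLH values was not tested.

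**Figure D5:**
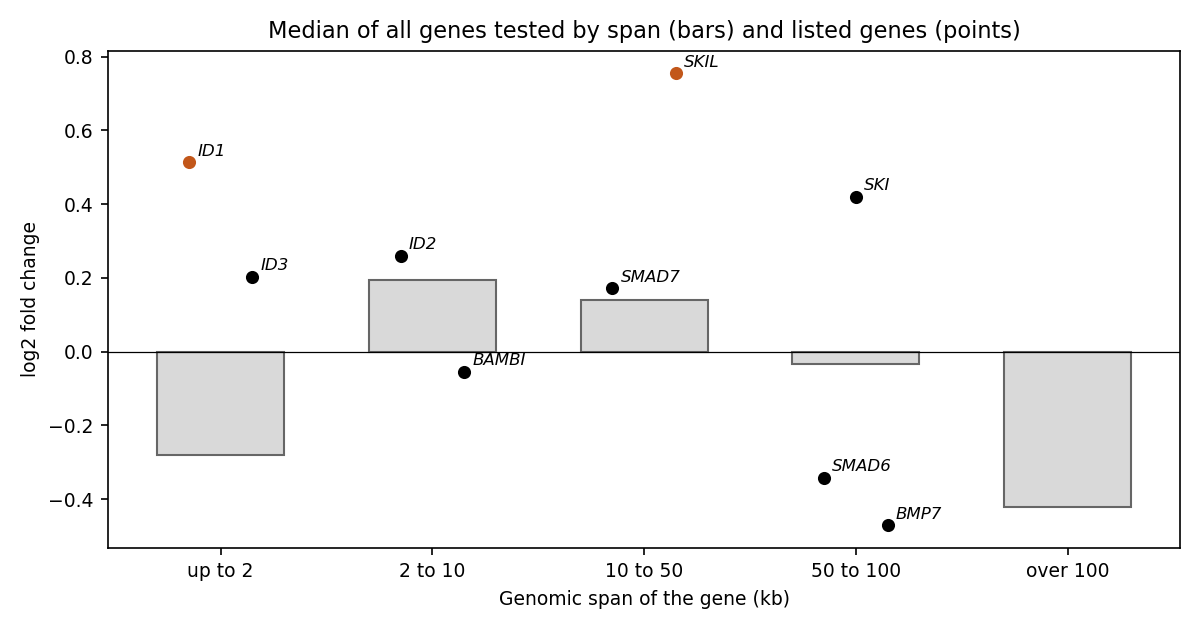
Median log2 fold change of all genes tested by genomic span (grey bars) with the listed genes as points (ID4, of 4.83 kb, is off this scale). Orange points are ID1 and SKIL, which passed the threshold. ID1 stands above its bar at -0.28, and BMP7 and SMAD6 lie below theirs at -0.03.

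The genes differ in length, and the fold changes of all genes moved with the genomic span. Among 1916 genes of up to 2 kb, which include ID1 (1.23 kb) and ID3 (1.58 kb), the median log2 fold change was -0.28 and 2.66% were called higher. It was 0.19 among 2860 genes of over 2 to 10 kb, which include ID2, ID4 and BAMBI, and 0.14 among 6020 genes of over 10 to 50 kb, which include SMAD7 and SKIL, with 9.23% and 9.47% called higher. Among 2413 genes of over 50 to 100 kb, which include SMAD6, SKI and BMP7, it was -0.03, with 5.06% called lower. ID1, with a log2 fold change of 0.51, thus lay above the median of its span, and so did SKIL, with 0.75. Among 2833 genes of over 100 kb, which include none of the 10, the median was -0.42 and 27.8% were called lower.

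The genes nearest to each ID gene, by the Euclidean distance between log2 CPM centred over the 4 libraries, included ENSG00000272520.1 for ID1 (distance 0.0245), PPP1R2 and CAPS for ID2 (0.0260 and 0.0286), TUT1 and PLAUR for ID3 (0.0240 and 0.0281), and DNAH17 and ULBP1 for ID4 (0.288 and 0.325). With 4 libraries in 2 conditions, such likeness describes these libraries only.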

How the data were processed

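RNA of SY5Y cells was measured in 4 libraries, 2 per condition, grouped by their labels. Paired reads were trimmed by the authors (Trimmomatic 0.30) and mapped with STAR 2.4.2a to hg19 and GENCODE 19. The deposited values are raw fragment counts for each gene in 3 columns (unstranded and 1 per strand), neither normalized nor pooled. Pairs that map to several places are not counted. The labels name a TruSeq RNA kit and the methods a stranded total RNA kit. The reverse-strand column was analysed, since the other strand held 4.64% to 5.05% of gene fragments. The 4 summary rows were left out. They include fragments outside annotated genes, which made up 11.8% and 12.0% of all fragments with DMSO and 14.7% and 15.5% with SGSS05-NS.

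Symbols and positions came from GENCODE 44 on GRCh37 (55538 of 57820 identifiers), the CTGF and CYR61 entries as CCN2 and CCN1 through RefSeq names, and GDF10 of the ligand list could not be matched. Genes were filtered with filterByExpr, scaled by TMM and tested with edgeR 4.0.16 in R 4.3.3 (quasi-likelihood, no covariate, Benjamini-Hochberg). The standard error is the log2 fold change over the square root of F. Alternatives used edgeR's likelihood ratio test (the study's test), DESeq2 1.42.0, limma 3.58.1 voom, other scalings, filters and thresholds, unstranded counts, a replicate block and each library left out. Tested on simulated data, the fit gave no false call but recovered fewer of the known changes than was first required, and it missed mostly small changes and those in genes with few fragments, so a gene that did not pass may have changed. The replicates of a condition differed by more than sampling noise (chi-square over its degrees of freedom 8.76 for DMSO and 11.8 for SGSS05-NS).

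The 10 genes and the lists, written from general knowledge, were chosen with earlier results of these data known. Named were the 10 genes, KMT5A, the 3 genes of each list with the smallest p-values, a fixed set (SMAD1, SMAD4, SMAD5, TGFBR1, BMPR1A, BMPR2, NOG, TCF3, TCF4, TCF12, HAND2 and others), the 2 nearest genes to each ID gene, and the exceptions stated in the text. Some genes that this rule names are not reported here.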

Additional observations from a re-analysis of the deposited data

How the results depend on the processing

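ID4 and SKIL were called higher under each alternative in which they were tested, and the median of all genes stayed within 0.07 of 0 on the log2 scale in each. The likelihood ratio test called 2022 genes higher and 2267 lower, and 15 other pathway genes higher. Without a filter on low counts these were 2034, 2570 and 15, and 1 of the 10 genes, BMP7, was lower. At least 10 counts in every library left 4 other pathway genes higher, with fewer genes tested. An adjusted p-value under 0.01 gave 2321 genes higher and 2616 lower, with 1 of the 10 lower and 15 other pathway genes higher, and one under 0.05 gave 3728 and 3903, with 1 of the 10 lower and 20 other pathway genes higher and 31 lower. With single libraries left out, the lower genes among the 10 numbered from 0 to 1, and BAMBI ranged from -0.17 to 0.04, with a reversed sign without DMSO replicate 1 (0.02) and without SGSS05-NS replicate 2 (0.0443). A condition then has 1 library, which is assumed to vary like the other condition. With the replicate number as a block, 1759 genes were higher, 14 other pathway genes were higher and 1 of the 10, BMP7, was lower. Deviations of same-numbered libraries correlated at 0.053 across genes. Rare genes with much counting noise weigh as much as others in this value, so it cannot show whether same-numbered libraries share more than a number. Where the cause of a shift is not stated, the cause was not tested. Depth limits ID4, GDF5, CHRD, CCN1, NHLH1 and CD44, each below 1 CPM with DMSO. All of them passed the filter on low counts only through their SGSS05-NS libraries.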

Other observations

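Annotated genes on the opposite strand of 3 of the 10 genes could be read because the counts keep the strand. ID2-AS1, a long non-coding RNA that overlaps ID2, had 72 and 78 fragments with DMSO and 76 and 103 with SGSS05-NS (log2 fold change 0.33, adjusted p = 0.23 from edgeR's test). BMP7-AS1 had no fragment in any library. Fragments on the opposite strand of the 10 genes themselves numbered at most 20 in a library, in ID3.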
